A study of Mus musculus with 9 samples.

Results

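The urea cycle and the adjoining steps that strip nitrogen from amino acids were followed through 10 genes in bulk mouse liver RNA-seq. The genes were Cps1, Otc, Nags, Slc25a15, Ass1, Asl, Arg1, Sds, Hal and Gls2, and each matched 1 of the 16755 genes in the table. They were chosen by symbol for their place in the pathway, with earlier results of these data known. All 10 averaged 1 normalized count or more over the 3 groups, a floor that 11784 genes passed and that is used for every background share. The study asked how deleting Scd2, a stearoyl-CoA desaturase, in activated hepatic stellate cells (HSC) affects liver tumor formation. The untreated group was Scd2f/f liver, from mice that carried a floxed exon of Scd2 but no Cre. Its samples are labelled as untreated, although their treatment protocol field repeats the text on DEN and diet. The Scd2f/f TAL group came from mice of that genotype given the carcinogen diethylnitrosamine (DEN) when 2 weeks old, at 10 mg/kg, and then, per the labels, a Western alcohol diet (WAD) for 4 months from the age of 6 weeks, where the study's methods give a longer diet. The Scd2f/f;CC TAL group had the same regimen and also carried Cre under the Col1a1 promoter, so that the deletion was aimed at Col1a1-expressing stellate cells and portal fibroblasts and not at hepatocytes. All mice were labelled C57BL/6 (a C57BL/6J background in the study's methods), those on the DEN and WAD regimen were male per those methods, and the age of the untreated mice was not given in the sources used here. TAL means tumor-adjacent liver, which the labels call only liver tissue and the study's RNA methods call NTL. The study describes TAL as holding microscopic tumors but no visible ones, and reports that tumors were much reduced in Scd2f/f;CC mice. The untreated and Scd2f/f TAL groups therefore differ in DEN and diet together, and these cannot be told apart, while no untreated mice with Cre were included.

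Each group held 3 mice, but the deposited values are 1 mean per group. The p-values of the authors' own comparisons were not used, and the means alone give no spread between mice, standard error or test. Every difference below therefore compares group means without a replicate check. The depth of each library is likewise unknown. Scd2 itself had a mean of 2.46 in untreated liver, 6.47 in TAL of Scd2f/f mice and 1.87 in TAL of Scd2f/f;CC mice, and this whole-gene value also counts exons outside the floxed one. The tissue carried hepatocyte RNA in every group, with Alb, the gene of serum albumin, at 21300, 20900 and 22700 in the same order.

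Hepatocytes near the portal vein take up ammonia and amino acids arriving from the gut and turn the nitrogen into urea. Carbamoyl phosphate is made and joined to ornithine in the mitochondrion, citrulline leaves in exchange for ornithine, and the remaining steps add aspartate nitrogen, release fumarate and split arginine into urea and ornithine in the cytosol. Sds, Hal and Gls2 feed this cycle by releasing ammonia from serine, histidine and glutamine. The periportal placement is textbook background here, since bulk tissue keeps no position within the lobule.

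RefSeq promoter windows on GRCm38.p6, of 300 bases with 250 before the start site, were at hand for 5 of the 10 genes (Ass1, Hal, Nags, Otc and Slc25a15, the last with 2 windows). The windows of Hal and Ass1 are shown because these genes had the largest and the smallest ratio between the TAL groups (Scd2f/f;CC divided by Scd2f/f) among the 10. The Hal window lies at chr10:93488518-93488817 and the Ass1 window at chr2:31470020-31470319, both on the plus strand, and capitals mark matches to the motifs searched.
Hal: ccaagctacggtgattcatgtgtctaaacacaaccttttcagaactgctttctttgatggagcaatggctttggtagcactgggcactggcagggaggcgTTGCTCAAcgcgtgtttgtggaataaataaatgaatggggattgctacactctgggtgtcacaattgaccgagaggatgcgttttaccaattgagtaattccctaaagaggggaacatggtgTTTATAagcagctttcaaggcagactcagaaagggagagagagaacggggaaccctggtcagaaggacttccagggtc
Ass1: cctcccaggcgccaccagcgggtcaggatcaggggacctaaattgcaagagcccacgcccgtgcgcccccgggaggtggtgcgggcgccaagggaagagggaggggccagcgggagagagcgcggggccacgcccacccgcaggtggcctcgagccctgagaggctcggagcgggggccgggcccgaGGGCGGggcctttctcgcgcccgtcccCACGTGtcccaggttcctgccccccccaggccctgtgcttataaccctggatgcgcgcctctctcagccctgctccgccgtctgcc
The 6 motifs searched on both strands were the TATA box TATAAA, the GC box GGGCGG, the E-box CACGTG, the C/EBP-type TTGCNNAA, the glucocorticoid receptor half-site letters AGAACA and the cyclic AMP response element TGACGTCA. The Hal window held TATAAA on the opposite strand at -28 to -23, counting the start site as 0, a match that 13.6% of all 32851 windows share in at least 1 place. It also held the C/EBP-type TTGCNNAA at -150 to -143, which 10.8% of windows hold. The Ass1 window held the GC box GGGCGG at -63 to -58 (35.7% of windows) and the E-box CACGTG at -36 to -31 (7.15% of windows). The bases of these windows also differed in make-up, with 47.7% G or C and 7 CG pairs for Hal against 74.0% and 27 for Ass1, where the median over all windows was 52.7% G or C. GGGCGG was also found in the Nags window and both Slc25a15 windows, CACGTG also in 1 Slc25a15 window at -77 to -72, and the Otc window held none of the 6. AGAACA and TGACGTCA, found in 19.0% and 1.79% of all windows, matched none of the windows of these 5 genes. These are matches of letters in a short window and were not tested as binding sites.

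The levels spanned a wide range in every group. Cps1, which makes carbamoyl phosphate and opens the cycle, was the most abundant by normalized count and Nags the least. To compare genes, the means were divided by coding length, giving normalized counts per kilobase. On that scale in untreated liver the order was Ass1 at 730, Cps1 at 591, Arg1 at 536, Otc at 239, Slc25a15 at 154, Asl at 103, Gls2 at 54.9, Hal at 51.8, Sds at 33.2 and Nags at 14.1. Whether neighbours in this order differ beyond the spread of mice cannot be said without single-mouse values. The order was the same in both TAL groups but for Hal, which stood above Gls2 there (49.6 against 40.4 without Cre and 90.8 against 51.8 with Cre). Dividing by exon length instead put Cps1 above Ass1.

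**Figure D1:**
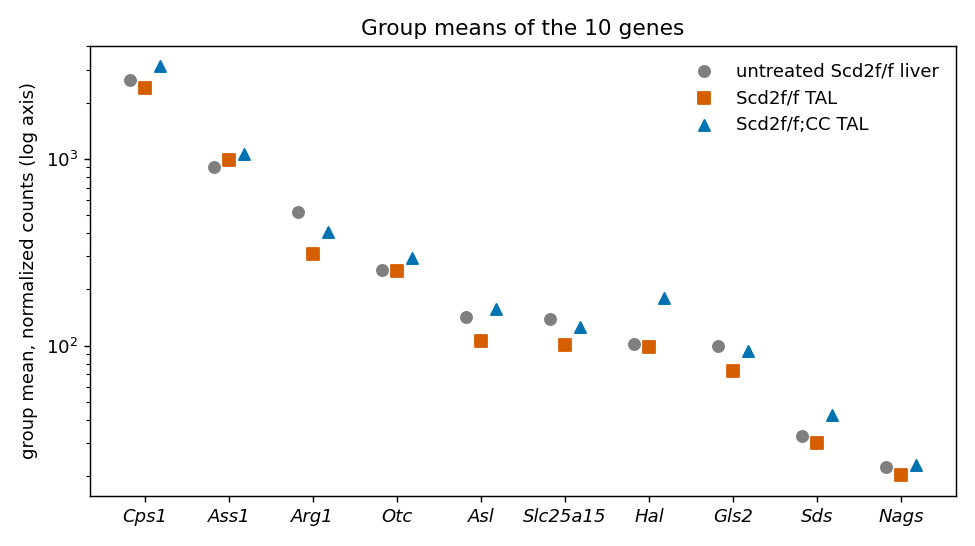
Group means of the 10 genes in normalized counts on a log axis, with 1 point per group (grey circles, untreated Scd2f/f liver; orange squares, Scd2f/f TAL; blue triangles, Scd2f/f;CC TAL) and no error bars, since only group means were deposited. The blue triangle lies above the orange square for all 10 genes as deposited (9 relative to hepatocyte markers), and Hal has the widest gap, 97.7 against 179.

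In Scd2f/f TAL against untreated liver, 9 of the 10 genes had a lower mean (8 when ratios were set relative to the median of hepatocyte markers, where Otc turned) and 1, Ass1, a higher one, against 46.7% lower and 52.7% higher among all genes past the floor. The differences were mostly small. Only Arg1 was lower by at least 1.5-fold, which was 1 of 10 genes against 8.59% of all genes, a share near the background. None was higher by 1.5-fold, against 12.8% of all genes. The median log2 ratio of the 10 was -0.15 and that of all genes 0.03.

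Between the TAL groups, all 10 genes had a higher mean in Scd2f/f;CC mice (9 relative to the hepatocyte median, where Ass1 turned), as did 50.6% of all genes, and none a lower one, against 48.4% of all genes. The log2 ratios ran from 0.10 for Ass1 to 0.87 for Hal, with a median of 0.37 against 0.01 for all genes. Hal was the only one past 1.5-fold, which 2.35% of all genes were in the upward direction and 4.87% in the downward one, and Asl lay just inside that limit. Among the more abundant genes, those averaging 10 or more and including all 10, the share that was higher was 54.8%. The 10 genes share tissue, libraries and cell type, so their count is not 10 independent observations.

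In Scd2f/f;CC TAL against untreated liver, 7 of 10 were higher (6 relative to the median of all genes and 5 relative to the hepatocyte median) and 3 (Slc25a15, Arg1 and Gls2) lower, where 54.3% of all genes were higher and 45.1% lower. Hal was again the only one past 1.5-fold upward, against 10.9% of all genes, and none was lower by 1.5-fold, against 7.7%. The median log2 ratio was 0.17, or -0.0065 relative to the hepatocyte median, and that of all genes was 0.04. The 3 comparisons share their groups, with each group entering 2 of them, so their values are given side by side and not as separate evidence.

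**Figure D2:**
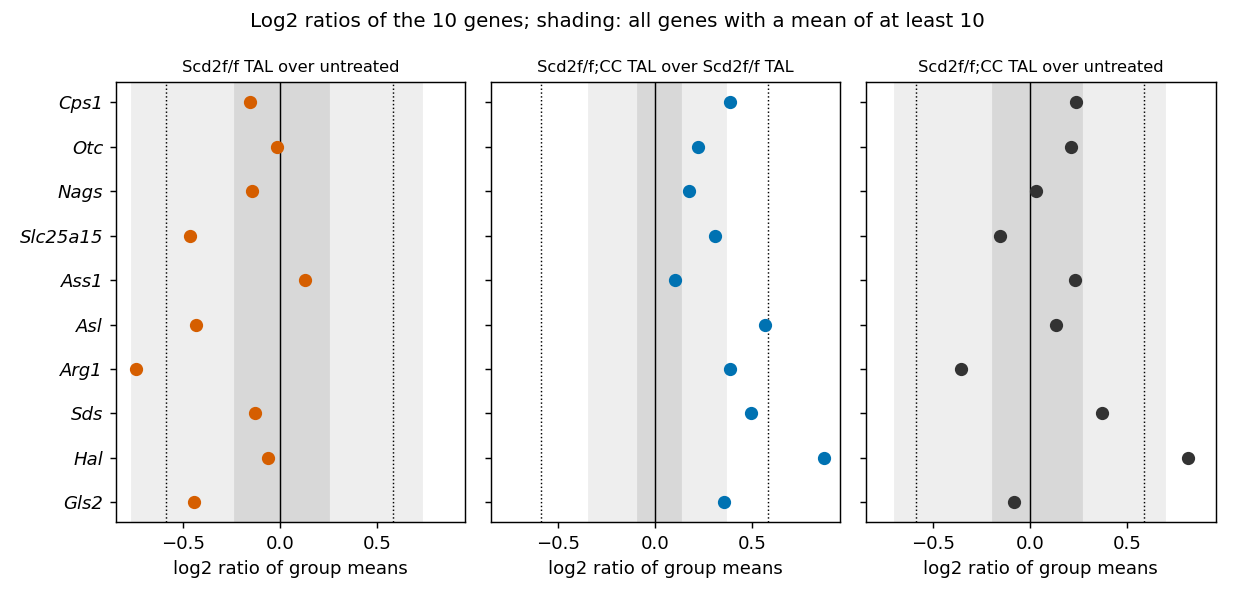
Log2 ratios of group means for the 10 genes in each comparison, 1 point per gene. Dark and light shading span the middle 50% and 90% of the 5586 genes that averaged 10 or more, and dotted lines mark 1.5-fold. All 10 points lie right of 0 in the middle panel (9 relative to hepatocyte markers), where the shaded spread is narrower, and Hal lies right of the dotted line there and in the right panel.

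The mitochondrial steps came first in the cycle. Cps1, at chr1:67123026-67231259 on the plus strand with 38 coding exons, had means of 2660 in untreated liver, 2390 in TAL of Scd2f/f mice and 3130 in TAL of Scd2f/f;CC mice. Scd2f/f TAL was the lowest and Scd2f/f;CC TAL the highest of the 3, with a ratio of 1.31 between these, a ratio that 5.78% of all genes exceeded. Nags makes N-acetylglutamate, the obligate activator of the Cps1 enzyme, and lies at chr11:102145513-102149477 on the plus strand. Its means of 22.3, 20.2 and 22.8, in the same order, spanned 1.13-fold, the narrowest range of the 10 genes. Otc joins carbamoyl phosphate to ornithine and lies on the X chromosome at chrX:10252305-10321024 on the plus strand. Otc had 254, 252 and 294, so the untreated and Scd2f/f TAL means were nearly equal (ratio 0.992) and the Scd2f/f;CC TAL mean stood above both. Slc25a15, the carrier that exchanges ornithine and citrulline across the inner membrane, lies at chr8:22375551-22398597 on the minus strand. It had 139, 101 and 125, which placed both TAL groups below untreated liver, at ratios of 0.727 and 0.899. The summed means of these 4 genes were 3075, 2763 and 3572, a total made up mostly of Cps1, and their median log2 ratio between the TAL groups was 0.27.

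The cytosolic steps diverged from each other. Ass1, which condenses citrulline with aspartate, lies at chr2:31470207-31520672 on the plus strand, and the promoter window printed above starts its transcript 63 bases inside this gene model. Its means were 902, 986 and 1060, and it was the only one of the 10 with a higher mean in Scd2f/f TAL than in untreated liver (ratio 1.09). Asl, which splits argininosuccinate into arginine and fumarate, lies at chr5:130011258-130029247 on the minus strand. Asl had 143, 106 and 157, lowest in Scd2f/f TAL, with ratios of 0.741 to untreated liver and 1.48 between the TAL groups. Only 2.55% of all genes had a higher ratio in the second comparison. Arg1 splits arginine into urea and ornithine, and lies at chr10:24915221-24927484 on the minus strand. Arg1 had 519, 311 and 406, with the highest mean in untreated liver and the lowest in Scd2f/f TAL, at a ratio of 0.599, below which 5.62% of all genes lay. The Scd2f/f;CC TAL mean was 1.31 times that of Scd2f/f TAL and 0.782 times that of untreated liver. Ass1 and Asl, the adjacent steps, thus had ratios to untreated liver on opposite sides of 1 in Scd2f/f TAL. The median log2 ratios of the 3 genes were -0.43 for Scd2f/f TAL to untreated and 0.38 between the TAL groups.

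Arg1 is also made by some macrophages, and macrophage markers differed between the same groups. All 7 of the 7 macrophage genes listed were higher by at least 1.5-fold in Scd2f/f TAL than in untreated liver, against 12.8% of all genes. Their median log2 ratio was 1.84, and their summed mean was 82.3 in untreated liver, 298.7 in TAL without Cre and 237.1 in TAL with Cre. Marco, a Kupffer cell scavenger receptor, had 0.87, 14.6 and 10.7. Arg1 was lowest in the group where this sum was highest. The part of macrophages in the Arg1 values was not tested.

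Hal, histidine ammonia-lyase, takes the first step of histidine breakdown and releases its ammonia. It lies at chr10:93488768-93519304 on the plus strand with 20 coding exons. Its means were 102 in untreated liver, 97.7 in TAL without Cre and 179 in TAL with Cre, so the first 2 were alike and the last stood apart. The ratio between the TAL groups was 1.83, which 0.933% of all genes exceeded, and that of Scd2f/f;CC TAL to untreated was 1.75, which 6.26% exceeded. Sds, serine dehydratase, turns serine into pyruvate and ammonia and lies at chr5:120476526-120483932 on the plus strand. Sds had 32.6, 29.9 and 42.2, highest in Scd2f/f;CC TAL, with a ratio of 1.41 between the TAL groups that 3.48% of genes exceeded. Gls2, the liver glutaminase, releases ammonia from glutamine and lies at chr10:128194457-128210004 on the plus strand. Gls2 had 99.1, 73.0 and 93.5, lowest in Scd2f/f TAL at a ratio of 0.737 to untreated liver, and the Scd2f/f;CC TAL mean was 1.28 times that of Scd2f/f TAL. The 3 genes had the largest median between the TAL groups of the role groups, a log2 ratio of 0.50, and their summed means were 233.7, 200.6 and 314.7.

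The steps after Hal were compared with it. Uroc1, urocanase, had 121, 156 and 175, higher in both TAL groups than in untreated liver. Amdhd1, the imidazolonepropionase, had 50.0, 67.5 and 85.6. It is the neighbour of Hal on chromosome 10, starting 4034 bases past its end on the opposite strand, at chr10:93523338-93540033. Ftcd, which ends the route by passing the formimino group to folate, had 94.0, 86.8 and 114. All 4 had their highest value in Scd2f/f;CC TAL, but the ratio between the TAL groups was 1.83 for Hal and 1.12, 1.27 and 1.31 for the later steps in order.

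**Figure D3:**
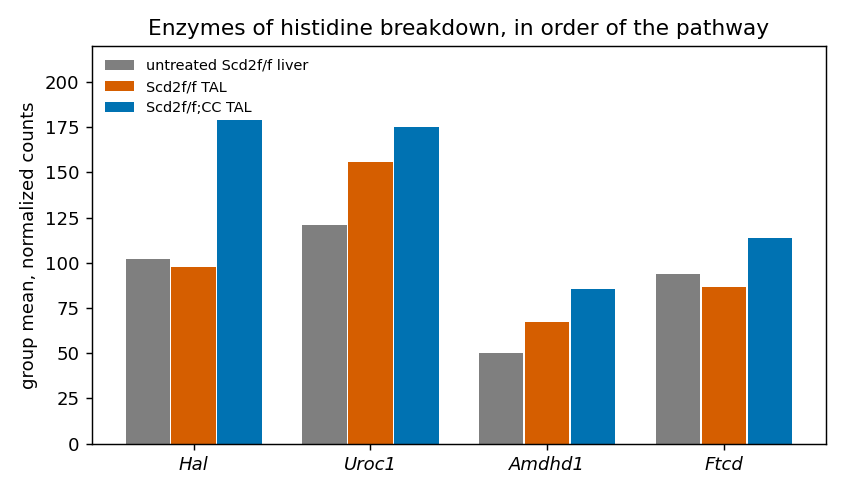
Group means in normalized counts for the 4 enzymes of histidine breakdown in the order of the pathway, with 1 bar per group and no error bars. The blue bar of Scd2f/f;CC TAL is the tallest for each enzyme, and only for Hal are the untreated and Scd2f/f TAL bars of about the same height while the blue bar stands far above both.

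Among the 5585 other genes averaging 10 or more, the 3 whose log2 ratios to untreated liver lay nearest to those of Hal were Igfals, 1500017E21Rik and Mup1, by Euclidean distance over the 2 TAL groups. Igfals, a carrier protein of insulin-like growth factors in blood, had 31.2, 30.0 and 50.3 at a distance of 0.12. 1500017E21Rik had 33.5, 32.9 and 53.8 at 0.13. Mup1, a major urinary protein, had 1470, 1370 and 2830 at 0.14, and its reads can be shared with near-identical members of its family. With 2 ratios per gene, such likeness is a description of these 3 means.

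Related enzymes outside the cycle had much lower levels per coding kilobase. The ratio of Sds to Sdsl, its relative, was 12.8 in untreated liver, 11.4 in TAL without Cre and 13.4 in TAL with Cre. Cps1 stood 349, 493 and 618 times above Cad, the cytosolic enzyme that makes carbamoyl phosphate for pyrimidines, whose means were 11.3, 7.19 and 7.51.

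Other enzymes of amino acid metabolism were taken as a list of 75, of which 73 passed the floor. Between the TAL groups 67 were higher with Cre and 5 lower, with a median log2 ratio of 0.21, below the 0.37 of the 10 genes. Among all genes, 50.6% were higher and 48.4% lower. Only Got1 and Tat, 2 of the 73, were higher by at least 1.5-fold, a share near the 2.35% of all genes. None was lower by 1.5-fold, against 4.87% of all genes. Against untreated liver, Scd2f/f TAL had 39 higher and 33 lower, shares near the 52.7% and 46.7% of all genes. The median log2 ratio was 0.02. By at least 1.5-fold, 3 were higher and 6 lower, against 12.8% and 8.59% of all genes. Whether the 10 genes differ from these lists was not tested.

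Aspartate brings the second nitrogen into urea and glutamate supplies the first. Got1, the cytosolic aspartate aminotransferase, had 51.8, 39.0 and 71.7, with a ratio of 1.84 between the TAL groups, close to that of Hal. Gpt, an alanine aminotransferase, had 71.8, 61.4 and 78.6, whereas its mitochondrial relative Gpt2 had 242, 186 and 173 and was lower in both TAL groups. Slc25a22, a mitochondrial glutamate carrier, had 39.9, 36.6 and 46.1. The 11 genes of this list past the floor had medians of -0.12 for Scd2f/f TAL to untreated and 0.21 between the TAL groups. In the latter comparison 8 were higher and 2 lower, against 50.6% and 48.4% of all genes.

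For most members of the remaining lists of breakdown enzymes, the TAL mean was higher with Cre than without, as it was for 50.6% of all genes. All 13 genes of histidine, serine, glycine and threonine metabolism were higher, with a median log2 ratio of 0.23. Agxt, which removes glyoxylate with alanine, had 94.2, 60.2 and 87.4. Gcat, of threonine breakdown, had 32.2, 16.5 and 19.9, low in both TAL groups. Of 14 aromatic and tryptophan genes 13 were higher, with a median of 0.24. Tat, which opens tyrosine breakdown, had 499, 181 and 305, a ratio of 0.363 for Scd2f/f TAL to untreated. Hpd, of the next tyrosine step, had 441, 539 and 758. All 18 branched-chain and lysine genes were higher with a median of 0.16, and Dbt, a subunit of the branched-chain dehydrogenase, led them at a log2 ratio of 0.26. Of 10 sulfur amino acid genes 9 were higher, with a median of 0.35. Mat1a, which makes S-adenosylmethionine, had 725, 831 and 1190, and Bhmt, which remethylates homocysteine, had 940, 1480 and 2050. Gnmt, which methylates glycine, ran the other way against untreated liver with 708, 448 and 572. Of 7 proline, ornithine and asparagine genes 6 were higher, with a median of 0.20. Oat, which moves ornithine nitrogen to glutamate and marks the pericentral zone, had 244, 441 and 593, the reverse of Arg1 in its order from untreated liver to Scd2f/f TAL. Asns, which makes asparagine, had 2.72, 1.13 and 1.08.

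**Figure D4:**
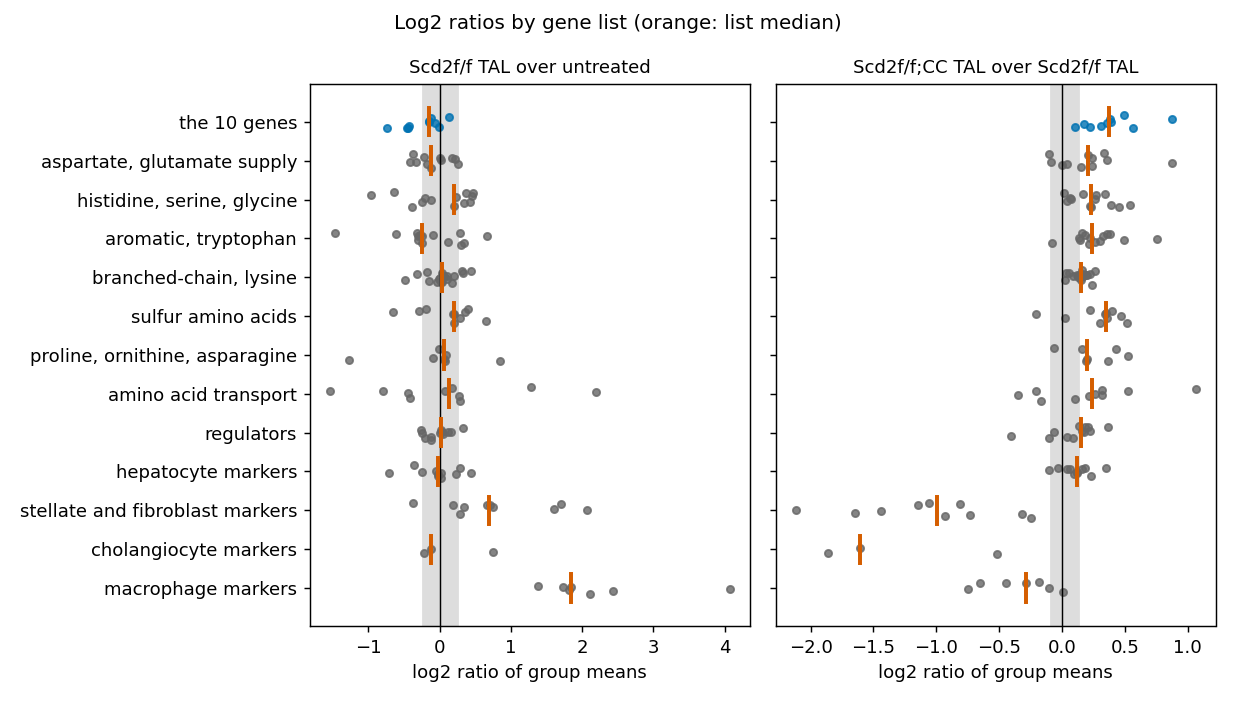
Log2 ratios of group means by gene list for genes past the floor, for Scd2f/f TAL over untreated (left) and Scd2f/f;CC TAL over Scd2f/f TAL (right), with 1 dot per gene, an orange bar at the list median and the 10 genes in blue. Shading spans the middle 50% of genes averaging 10 or more, and the horizontal scales of the panels differ. On the right the amino acid lists have medians above 0 and the stellate and cholangiocyte lists medians of -0.996 and -1.61.

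Transporters and regulators were mixed. Of 10 amino acid transporters past the floor, 7 were higher and 3 lower with Cre than without in TAL, against 50.6% and 48.4% of all genes. Only Slc43a1, at 2.94, 1.01 and 2.11, was higher by at least 1.5-fold, against 2.35% of all genes. None was lower by 1.5-fold, against 4.87%. Slc38a3, a glutamine transporter, had 491, 361 and 519. Slc7a2, a carrier of arginine and ornithine, had 311, 376 and 470. Slc1a2, a glutamate transporter of pericentral cells, had 92.7, 226 and 196. Among 12 regulators, 9 were higher and 3 lower between the TAL groups, again against 50.6% and 48.4% of all genes. Their median log2 ratio was 0.15. No regulator passed 1.5-fold, which 2.35% of all genes did upward and 4.87% downward. Cebpb, a C/EBP factor, had 79.5, 66.2 and 49.9, and Ppara, a nuclear receptor of fasting, had 79.0, 80.7 and 104. Gcgr, the glucagon receptor, had 53.7, 49.2 and 55.6, a narrow range.

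Markers of other zones and cell types were read beside the 10 genes. Of 12 other periportal genes, 10 were higher between the TAL groups, with a median log2 ratio of 0.24. The 13 pericentral genes had 10 higher and a median of 0.20. The share of all genes that were higher was 50.6%. G6pc, which releases glucose, had 71.2, 54.2 and 136, and Pck1, of gluconeogenesis, had 897, 715 and 1010, both lowest in Scd2f/f TAL. For Scd2f/f TAL to untreated liver, however, 8 of the 12 periportal genes were higher and 4 lower, against 52.7% and 46.7% of all genes. The median log2 ratio of the 12 was 0.43. By at least 1.5-fold, 4 were higher, against 12.8% of all genes, and none was lower, against 8.59%. Among those 4, Ctsc had 28.5, 66.8 and 69.2, and Etnppl had 25.4, 48.2 and 73.0. The part of macrophages and other cell types in the values of this periportal list was not tested. Glul, the glutamine synthetase of the last pericentral cells, had 546, 704 and 675. The 11 hepatocyte markers in the table had a median of 0.12 between the TAL groups, and their summed mean was 36990, 35410 and 39040. All 10 stellate and fibroblast markers past the floor were lower in TAL with Cre than without, against 48.4% of all genes. By at least 1.5-fold, 8 of them were lower, against 4.87% of all genes, and the list's summed mean was 207.7, 351.3 and 200.0. Col1a1, which also drives the Cre, had 4.69, 19.6 and 4.51. The 3 cholangiocyte markers past the floor were lower as well, and the sum of all 5 in the table was 58.7, 53.1 and 19.1, with Epcam, their defining adhesion molecule, at 1.97, 1.82 and 0.50. Most of this sum was Spp1, at 52.3, 45.1 and 14.8. Sox9 had 3.0, 5.03 and 3.52, above untreated liver in both TAL groups. Endothelial markers summed to 109.8, 146.8 and 147.3. Between the TAL groups, 2 of these 7 were higher with Cre and 5 lower, against 50.6% and 48.4% of all genes. Only Lyve1, at 2.6, 6.6 and 3.44, was lower by at least 1.5-fold, against 4.87% of all genes. Lymphocyte markers, none of which passed the floor, summed to 1.56, 4.71 and 2.999, and the 2 neutrophil markers in the table to 0.565, 2.81 and 2.29. In bulk tissue, a smaller share of hepatocytes and less RNA of these genes per hepatocyte cannot be told apart. The part of cell make-up, microscopic tumors included, in the values of the 10 genes was not tested. Set relative to the hepatocyte median, the median log2 ratio of the 10 between the TAL groups was 0.25.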

How the data were processed

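Liver RNA from 9 mice, 3 per group, was sequenced by the authors after poly(A) selection. Gene counts were estimated in Partek Flow on Gencode M3 and scaled by upper quartile, and the submitters' processing notes name STAR 2.6.1, Partek 6 and mm10. The deposited signal values used here are the authors' least-squares group means of these normalized counts, given with 3 significant digits. Whether the means were formed on a linear or a log scale is not given in the sources used here. The deposited table also holds, for each of the authors' own comparisons, a p-value and its false discovery rate, a ratio and a signed fold change score, and none of these columns was used. The Scd2f/f TAL mean occurs in 2 columns that were identical for every gene.

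Ratios of means and their log2 values were computed in Python 3.11.15 with pandas 2.3.3 and NumPy 2.4.6, with no pseudocount, and plotted with Matplotlib 3.10.9. A fold of 1.5 counted as a difference, and the background was all genes with a mean of at least 1 over the 3 groups. Exons, coding lengths and coordinates are from GENCODE M21 on GRCm38, whose gene starts matched the deposited ones for all 10 genes. The genes and gene lists were chosen with earlier results of these data known. Genes named were the 10, Scd2, related enzymes, up to 4 genes per list and comparison with the largest absolute log2 ratio, and the 3 nearest in pattern to the gene of widest range. A few others were named after their values were seen, for their place in a pathway or as markers. Alternatives were smaller and larger folds, pseudocounts of 0.1 and 1, other floors, centring on all genes or on hepatocyte genes, protein-coding genes alone, exon length, and the bounds set by rounding, added after seeing the data. The ratio calculation was tested on simulated data. Some genes that this rule names are not reported here. Libraries could not be compared singly, and their depth is unknown.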

Additional observations from a re-analysis of the deposited data

How the results depend on the processing

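From the group means used, no replicate could be left out and no error between mice computed, and the authors' p-values were not used. No paired analysis was possible because the deposited columns hold 1 mean per group and carry no replicate. The count of genes past a fold followed the fold chosen. When 1 mean had to exceed the other by 25%, 4 of the 10 genes were past that limit downward in the comparison of Scd2f/f TAL with untreated liver (19.5% of all genes), 6 upward in that between the TAL groups (8.44%), and 2 upward (23.2%) and 1 downward (18.0%) in that of Scd2f/f;CC TAL with untreated liver. At 2-fold no gene was past the limit in any comparison, so that each count was 0, where upward and downward shares of all genes were 6.4% and 2.89%, 0.645% and 1.54%, and 4.51% and 2.55% in the order of the comparisons. Centring on the hepatocyte median gave 2 of 10 higher in the first comparison, a median log2 ratio of 0.25 in the second, and a median of -0.0065, on the other side of 0, in the third. The background past 1.5-fold moved with the floor. With a mean of at least 10 it was 7.64% higher in the first comparison and 1.77% lower in the second, and with no floor 5.72% higher and 9.8% lower in the second. By exon length, 3 of 10 genes kept their rank of level in each group. Rounding of the means put no ratio of the 10 genes on the other side of 1.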
